A study of Boechera stricta with 13 samples.

Results

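Larval feeding was common to both sides of this comparison, and drought was what differed. Boechera stricta is a perennial mustard closely related to Arabidopsis. Its shoots were compared between 5 plants that had been droughted before larvae fed on them (drought and herbivory, or double challenge) and 2 plants on which larvae fed under control watering (herbivory), with both populations pooled. The members were all rows of the authors' deposited table for that pair of groups, 72 genes of the 3112 identifiers listed in any of the 9 deposited tables, and 67 of them (93.1%) were higher and 5 lower when drought was added. The double challenge group held 3 plants of the high elevation Big Horns population and 2 of the low elevation Black Hills population, and the herbivory group held 1 plant of each. These were 7 of the 13 plants sequenced, and the rest were 4 plants under drought alone and 2 controls, neither of which enters this comparison.

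When water runs short, plants make abscisic acid (ABA), which closes stomata and turns on protective genes. Chewing larvae set off jasmonic acid (JA) signaling, which turns on wound and defense genes, among them genes for the glucosinolates that are typical of the mustard family. The hormone pathways influence each other, so a plant under drought can answer larvae differently from a watered plant, and a plant with larvae can answer drought differently from a plant without them.

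The larvae were the beet armyworm Spodoptera exigua, a generalist, kept with single caged plants for a short time after a slow decline in soil water and a brief partial recovery. Plants without larvae were caged too. By the study's methods, a single line stood for each population, so a population is 1 genotype here. Watering and larvae were given to whole flats, and which flat a plant stood in was not used here, so flat and treatment cannot be told apart. The sequencing lane followed the population, and each group held plants of both lanes. The labels give the tissue as whole plant and the study's methods as shoots. Powdered tissue was extracted, so that fewer cells of a type and less RNA per cell cannot be told apart. Markers of leaf, root or flower could not be looked up, because the files do not pair identifiers with gene symbols and give no description of any member. Identifiers are therefore printed only for the largest changes, and the other genes are named by rank, from 1 for the largest fold change among the 67 that rose and, separately, among the 5 that fell.

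The tables list called genes only, with the ratio of the group levels and their sum, and the level of each group was derived from these. The unit is FPKM, which scales the fragments of a transcript by its length and by the mapped total of the library. Every row had a false discovery rate (q) of at most 0.05 by Cuffdiff2, and this filter on called genes is what chose the members, so their changes in this comparison are a description and carry no further test. The members made up 2.15% (higher) and 0.161% (lower) of the identifiers listed in any table. That total stands in for the number of genes tested, which is unknown, so such shares are shares of listed genes. Read depth and the spread between the 5 double challenge plants are unknown as well. The herbivory level of 24 members is also derived from the table of herbivory against control, and it was 1.09 times as high there for the median gene and, to this precision, for every one of the 24. The double challenge levels differed by a median factor of 1.011 and 1.004 from those in its comparisons with control and with drought.

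Drought added to herbivory raised the largest responder, Bostr.5763s0076, from 4.30 FPKM to 67.1 FPKM, a 15.6-fold change (log2 3.97). Bostr.13129s0043 followed with 4.07 FPKM in herbivory and 54.3 FPKM in the double challenge, 13.3-fold (log2 3.74). Both were weakly expressed in plants with larvae alone and moderately expressed once the plants had also been droughted. The gene ranked 3 went from 3.91 to 51.1 FPKM and that ranked 5 from 3.79 to 46.8 FPKM, so 4 of the 5 largest rises started under 5 FPKM. The exception, ranked 4, rose from 13.3 to 171 FPKM.

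Over the 67 genes that rose, the fold change ran from 2.15 to 15.6 with a median of 4.08. It was at least 4-fold, the threshold in the study's methods, for 35 genes and at least 10-fold for 8. The herbivory level of these genes had a median of 12.3 FPKM and was under 10 FPKM for 28 of them. In the double challenge the median was 50.6 FPKM and no gene was under 10 FPKM. The median fold change was 5.39 for the 28 genes under 10 FPKM in herbivory and 2.92 for the other 39, where the level in herbivory is itself a part of the ratio. Of the 72 members, 54 shared the smallest listed q, 0.0141, and the 7 with the largest, 0.0445, all rose, with a median of 2.38-fold.

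**Figure D1:**
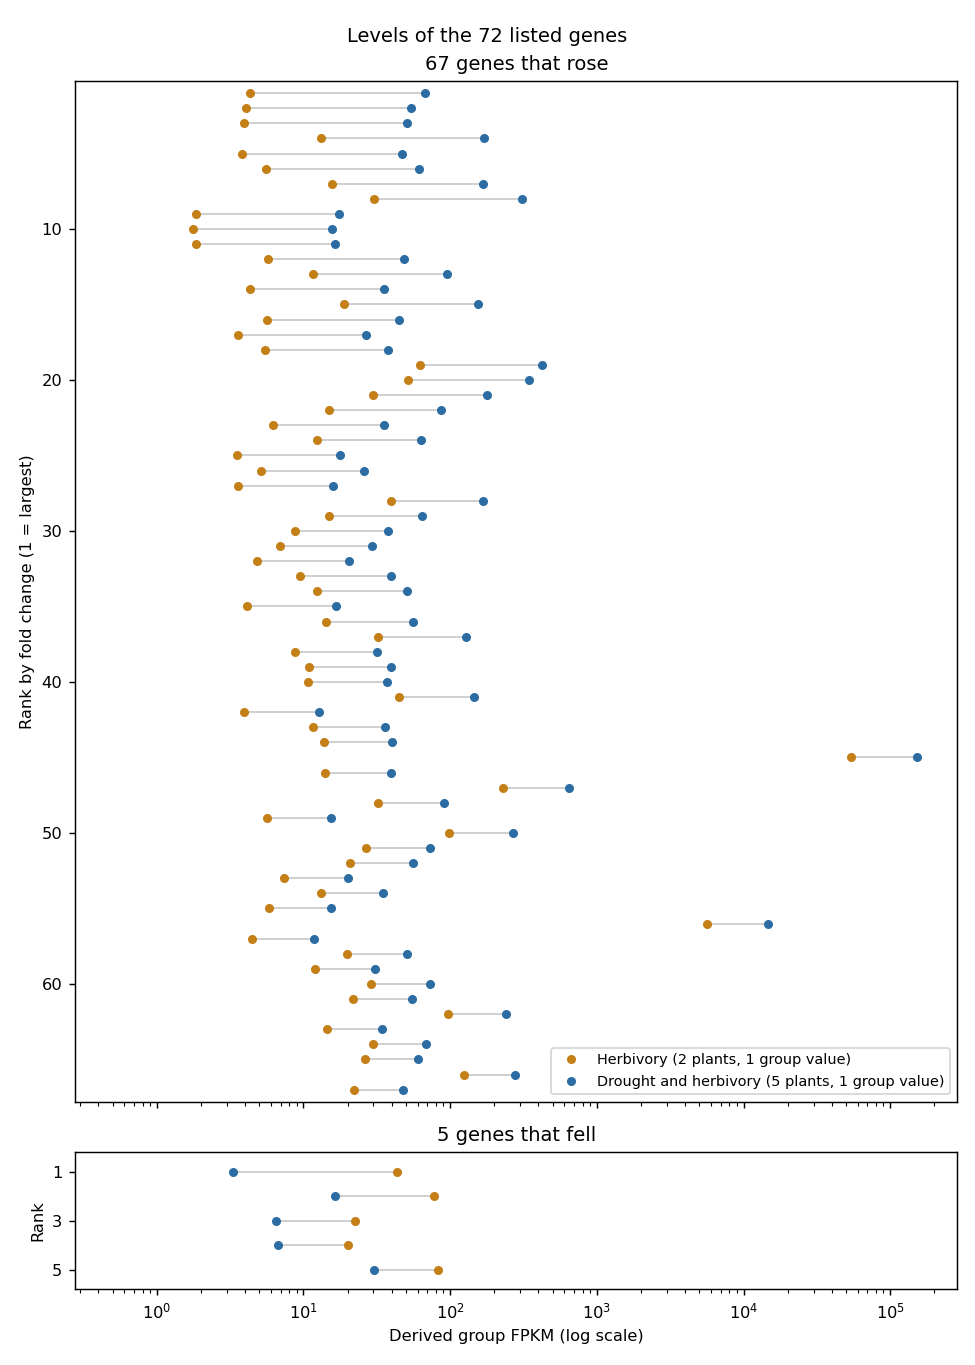
Derived FPKM (log axis) of every member in herbivory (2 plants, orange) and in drought and herbivory (5 plants, blue), 1 value per group, with genes ordered by fold change. Most of the 67 genes that rose lie under 100 FPKM in both groups, 2 assembled transcripts stand far to the right, and the 5 genes that fell have the order of the colors turned.

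The most abundant members were transcripts of the authors' assembly that lie outside the genome annotation. The transcript ranked 45 had 53726 FPKM in herbivory and 153119 FPKM in the double challenge, 2.85-fold, and that ranked 56 had 5611 and 14701 FPKM, 2.62-fold. Their level per kilobase was far above that of any annotated member, of which the highest, ranked 47, went from 230 to 648 FPKM. The remaining assembled transcript, ranked 38, went from 8.77 to 31.9 FPKM. The other 69 members carry identifiers of the genome annotation.

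Among the genes that fell, Bostr.8819s0118 had the largest change, from 43.3 FPKM in herbivory to 3.32 FPKM in the double challenge, a 13.1-fold fall (log2 -3.71). Bostr.24340s0012 fell from 77.3 to 16.3 FPKM, 4.73-fold (log2 -2.24). The gene ranked 3 among the falls went from 22.4 to 6.46 FPKM, that ranked 4 from 20.1 to 6.66 FPKM, and that ranked 5 from 83.2 to 30.03 FPKM. All 5 had at least 20.1 FPKM in plants with larvae alone, and only the first 2 passed a 4-fold change.

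The levels of the 2 single herbivory plants can be recovered for part of the members. Within a population, the table of herbivory against control holds 1 plant a side, so its herbivory level is that plant's own. For the 62 genes listed in both populations and in the pooled table, the mean of the 2 herbivory plants was 1.00 times the pooled level at the median, with a range of 0.928 to 1.12. Where a member is listed for a single population, the second plant was accordingly taken as what the mean leaves over, with a range from the 5th to the 95th percentile of that check. This gave both herbivory plants for 20 members, all of which rose, 2 of them with both plants listed. The rule could not be used for 1 further gene, ranked 31, whose Black Hills plant had 15.5 FPKM, 2.25 times the pooled level, which a mean of 2 plants cannot give. Among the 20, 15 genes have both a listed control plant and a pooled control level in the comparisons of herbivory with control. The plant was over 2 times the pooled level for 4 of the 15, up to 2.28 times. The rule thus fails for the controls of these 4, and the ranges given do not cover such failures.

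The rule and the folds of these genes, all over 2, together place both plants below the double challenge level, so their order against it is no result, and what the plants add is how far they lay apart. The gene ranked 4 had 11.5 FPKM in the Big Horns plant (10.3 to 13.3) and 15.0 FPKM in the Black Hills plant, and the double challenge had 171 FPKM. Its Black Hills control plant had 93.8 FPKM, and the pooled controls had 45.7 FPKM in the comparison of drought with control. The plant is thus just over 2 times the pooled level, more than a mean of 2 plants can give, although the comparisons carry scales of their own. The Big Horns value of the gene ranked 4 is therefore uncertain. The gene ranked 8 was less even, with 54.2 FPKM (51.4 to 58.2) in the Big Horns plant and 6.40 FPKM in the Black Hills plant, and it is among the 4 whose controls broke the rule, so its Big Horns value is uncertain. For the gene ranked 53, with both plants listed, the levels were 11.5 FPKM in Big Horns and 3.23 FPKM in Black Hills, and the double challenge had 20.0 FPKM.

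The plants lay at least 2-fold apart for 8 of the 20 genes, with a median of 1.81-fold, and the lower plant was that of Black Hills for 11 and that of Big Horns for 9. The double challenge group held more Big Horns plants by share than the herbivory group did, and the part of these shares in the changes was not tested. How far the 5 double challenge plants differ among themselves is not known from the tables.

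**Figure D2:**
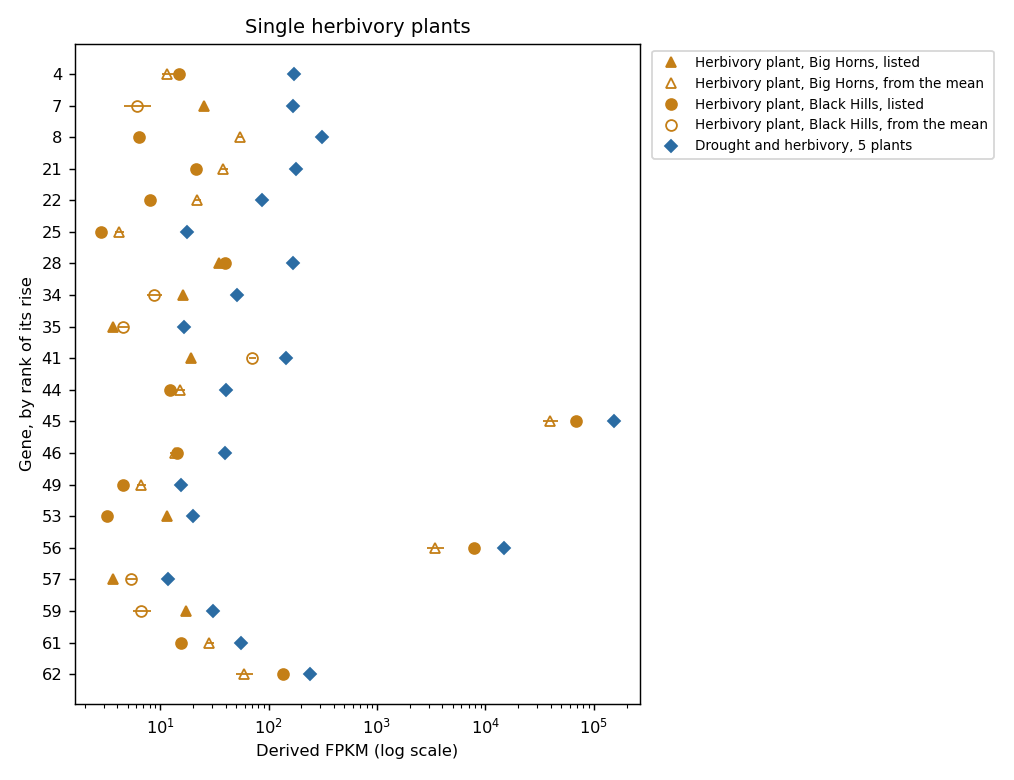
Derived FPKM (log axis) of the 2 single herbivory plants (orange; filled where listed, open where obtained from the mean, with the 5th to 95th percentile range as a line) and of the double challenge group (blue) for the 20 genes with both plants. The orange points lie close together for genes such as that ranked 28 and at least 2-fold apart for 8 genes, and their place to the left of the blue points follows from the folds that put these genes in the table.

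What drought did to these genes without larvae was read from the comparison of drought with control, which has no plant in common with this one. Of the 67 genes that rose, drought alone raised 12 (17.9%), where 3.41% of the identifiers listed in any table were raised, and it lowered 6 (8.96%), where 2.25% were lowered. Of the 5 genes that fell, 3 fell with drought alone as well and none rose. The other 49 risen and 2 fallen genes were not called in that comparison, where the smallest listed change was 2.05-fold. Of the 106 genes that drought alone raised, the 12 are 11.3%, and of the 70 it lowered, the 6 are 8.57% and the 3 are 4.29%.

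The 12 genes raised by drought with and without larvae had a median change of 5.59-fold with larvae and 4.56-fold without, and the change was larger with larvae for 6 of them. The gene ranked 4 had 45.7 FPKM in controls and 202 FPKM with drought, 4.43-fold, against the 12.9-fold rise from 13.3 to 171 FPKM with larvae. In these pooled levels it ended near the same level with and without larvae, and started lower with them. The lower start is listed within Black Hills only, from 93.8 FPKM in the control plant to 16.3 FPKM in the herbivory plant. It is not shown for Big Horns. The gene ranked 19 went from 193 to 1405 FPKM with drought alone, 7.29-fold, and from 62.3 to 422 FPKM with larvae, 6.77-fold. Its fold change was similar in both settings, while both of its levels were about as far below those of plants without larvae. The gene ranked 34 behaved the other way, with 1.05 FPKM in controls, 10.04 FPKM with drought, 12.4 FPKM with herbivory and 50.6 FPKM with both. In these pooled levels each challenge alone raised it and the double challenge stood higher still. Within a population, both single rises were called in Big Horns only. For Black Hills the mean left 1.39 FPKM in the control plant, 2.15 FPKM (1.57 to 3.08) with drought and 8.68 FPKM (7.51 to 10.3) with herbivory.

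Levels in herbivory were below those in control for 6 of the 12 genes and above them for the other 6, from 0.290 to 11.8 times. Levels in the double challenge were above those in drought alone for 8 of the 12, from 0.300 to 5.59 times. The tables carry scales of their own, which differ by the factors given above, so ratios near 1 are not to be read as a difference.

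**Figure D3:**
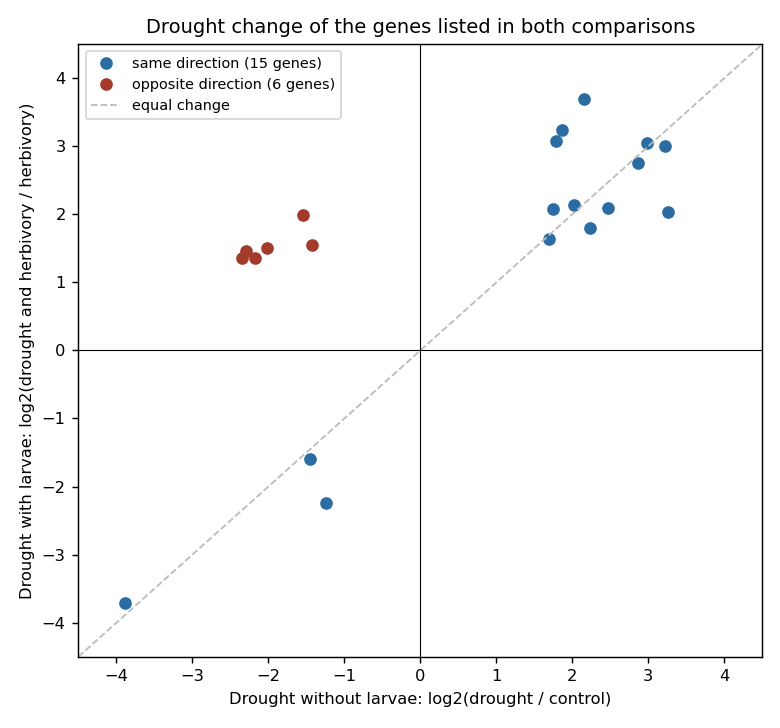
Log2 change with drought in the absence of larvae (x axis, drought over control) against that in the presence of larvae (y axis, double challenge over herbivory) for the 21 members listed in both comparisons, which share no plant. The 15 genes in blue changed in the same direction, 12 up and 3 down, and the 6 in red were lower with drought alone but higher when drought was added to herbivory.

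Drought went in opposite directions with and without larvae for 6 genes. The gene ranked 37 had 124.7 FPKM in controls and 42.7 FPKM with drought, 2.92-fold lower, but 32.4 FPKM with herbivory and 128 FPKM with both challenges, 3.95-fold higher. Either challenge alone thus left it at about the same low level, and with both it stood close to the control level. The genes ranked 44 and 46 had 53.0 and 62.1 FPKM in controls, 19.7 and 15.3 FPKM with drought, 13.8 and 14.1 FPKM with herbivory, and 40.2 and 39.8 FPKM with both. The gene ranked 49 followed the same course at lower levels, with 25.8, 5.27, 5.61 and 15.4 FPKM in that order. In the gene ranked 60 the levels were 61.1, 13.6, 28.7 and 73.1 FPKM. The sixth, ranked 59, differed in that the pooled herbivory level was not below control. It had 6.41 FPKM in controls, 1.26 FPKM with drought, 11.9 FPKM with herbivory and 30.6 FPKM with both. Its rise with herbivory is listed in Big Horns only, from 2.68 to 18.6 FPKM. In Black Hills the control plant had 10.1 FPKM, and the mean left 6.70 FPKM (5.57 to 8.27) for the herbivory plant. The difference of the drought changes with and without larvae was not tested, since the files hold 1 value per group.

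The drought change without larvae was also followed within each population, where the second population of a gene listed in a single one was again taken from the mean of both. The pooled drought level equaled that mean at a median factor of 0.997 over 26 genes, with a range of 0.954 to 1.08, and the control level at 1.00, with a range of 0.937 to 1.08. Of the 12 genes raised with and without larvae, 10 are listed within a population, 3 of them in both. Of these 10, 9 were higher with drought in both populations, by this rule where a single population is listed. One of the 9, ranked 9, had a derived Big Horns control of only 0.166 FPKM (0 to 0.701), at the floor of the rule. For the tenth, ranked 28, the change was in Big Horns, from 2.27 to 51.7 FPKM, while Black Hills had 8.67 FPKM (8.08 to 9.42) in the control plant and 8.60 FPKM (6.86 to 11.4) with drought. By this rule all 6 genes with opposite directions were lower with drought in both populations, and so were the 3 genes that fell in both settings. Each of these genes was called in 1 population only and its other population was derived, by a rule that failed for some controls above. The gene ranked 37, derived in Black Hills, had 94.5 FPKM (81.1 to 112) in the control plant and 59.7 FPKM (57.2 to 63.6) with drought. For the gene ranked 44, drought took the Black Hills level from 72.3 to 20.9 FPKM and the Big Horns level from 33.6 (27.9 to 40.9) to 18.5 FPKM (17.3 to 20.3). Each control value here is 1 plant, and each drought value is 2 plants.

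The control plants differed widely for the gene with the largest fall. Bostr.8819s0118 had 784 FPKM in the Big Horns control plant, which leaves 65.1 FPKM (19.5 to 123) for that of Black Hills, and drought alone brought these to 50.9 and 6.50 FPKM (4.84 to 9.14). Its pooled fall was 14.8-fold with drought alone and 13.1-fold with drought added to herbivory, close to each other although the starting levels were 425 and 43.3 FPKM. Bostr.24340s0012 fell 2.36-fold with drought alone, from 58.2 to 24.7 FPKM, and 4.73-fold with larvae present. The gene ranked 4 among the falls went from 22.2 to 8.11 FPKM with drought alone, 2.74-fold, and fell 3.02-fold with larvae.

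Called within the populations, drought without larvae raised 6 of the 67 risen genes (8.96%) in Big Horns, where 2.09% of listed identifiers were raised, and lowered 2 (2.99%), where 0.161% were lowered. In Black Hills it raised 21 (31.3%) and lowered 12 (17.9%), and the shares over all listed identifiers were 31.4% and 27.4%, so the share raised there lay at the background. The gene ranked 62 was the only one called in opposite directions, from 118 down to 30.7 FPKM in Big Horns and from 35.4 up to 71.9 FPKM in Black Hills. With larvae present it went from 97.1 to 239 FPKM over both populations. In all, 30 of the 72 members, 28 that rose and 2 that fell, were called for drought in none of the 3 tables without larvae. That is 41.7% of the members, close to the 39.5% of all listed identifiers that are in none of the 3.

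In pooled levels, larvae alone had lowered a part of the genes that rose when drought was added. In the comparison of herbivory with control, 19 of the 67 are listed as lower (28.4%, against 4.08% of listed identifiers) and 4 as higher (5.97%, against 8.39%). That comparison holds the same 2 herbivory plants, so a low value in those plants is a fall in one comparison and a rise in the other, and the count is a description. What the levels add is where the double challenge stood relative to the pooled control level. After dividing by the factor between the tables, it stood at a median of 0.892 times control for the 19 genes, between 0.5 and 2 times for 14 of them, above 2 times for 2 and under 0.5 times for 3.

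The gene ranked 7 had 250.4 FPKM in controls, which herbivory brought to 15.6 FPKM, and the double challenge stood at 168 FPKM. Its fall with larvae is listed within Big Horns, where the single control plant had 528 FPKM and the herbivory plant 27.4 FPKM on the scale of that table. For the gene ranked 8 the levels were 176, 30.3 and 308 FPKM, and its listed fall was from 433 to 6.96 FPKM in Black Hills. The listed control plant was 1.94 times the pooled control level of its table for the gene ranked 7 and 2.27 times for the gene ranked 8. For the genes ranked 21 and 25 it was 2.28 and 2.12 times. These last 3 values are more than a mean of 2 plants can give. In these genes the pooled control level rests mostly on 1 plant, so the fall is shown for its population only. For the others of the 19 where this ratio is known, it ran from 0.755 to 1.78 times. The gene ranked 20 had 136, 51.6 and 343 FPKM, and at 2.52 times control it stood highest of the 19. The lowest was the gene ranked 53, where controls had 78.6 FPKM, plants with larvae 7.42 FPKM and double challenge plants 20.0 FPKM, 0.255 times control. Of the 19, the double challenge was itself called against control as higher for 2 and as lower for 3, and was not called for 14. In that comparison 18.8% of listed identifiers were called as higher and 7.65% as lower, so most listed identifiers were not called there either. Within a population, the fall with larvae was called in Big Horns for 5 genes and in Black Hills for 9, in both for 1, and in neither for 6. Over all listed identifiers, herbivory lowered 0.964% in Big Horns and 1.77% in Black Hills, and raised 3.31% and 3.53%.

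**Figure D4:**
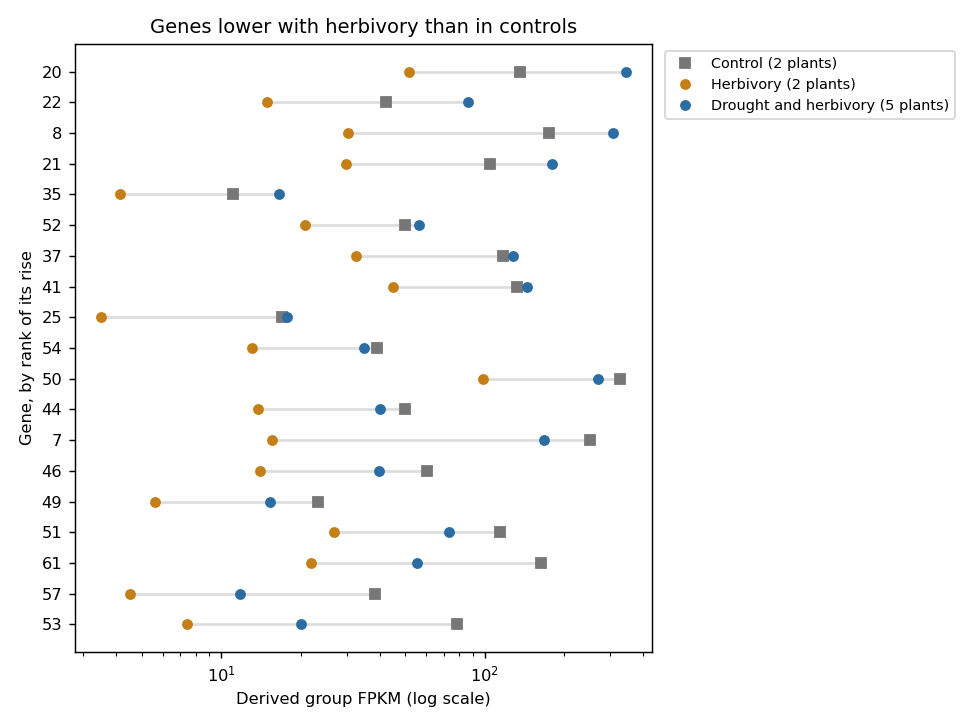
Derived FPKM (log axis) in control (grey squares, divided by the factor between tables), herbivory (orange) and drought and herbivory (blue) for the 19 risen genes that are listed as lower with herbivory than in controls, ordered by the double challenge level over the control level. Orange is leftmost in every row, and blue lies from 0.255 to 2.52 times the grey squares.

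The 4 genes that larvae alone had raised rose again with drought. They are the assembled transcripts ranked 45 and 56 and the genes ranked 28 and 34. The transcript ranked 45 had 378 FPKM in controls, against 53726 FPKM with herbivory and 153119 FPKM with both. In the Black Hills population drought alone took it from 825 to 3638 FPKM, 4.41-fold. The transcript ranked 56 had 179, 5611 and 14701 FPKM in control, herbivory and double challenge. The gene ranked 28 had 5.48, 39.3 and 168 FPKM in the same order, with the 2 herbivory plants close together at 35.1 FPKM in Big Horns and 39.4 FPKM in Black Hills. In all 4, the double challenge stood from 30.7 to 406 times as high as control.

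Of the 67 risen genes, 23 (34.3%) were also called as higher in the double challenge than in drought alone and than in control, and 15.6% of listed identifiers were. In those 2 comparisons the same 5 double challenge plants take part. For 13 of the 23 neither single challenge was called against control in the pooled tables, which is 19.4% of the risen genes and holds for 7.55% of listed identifiers. Their median level was 4.502 FPKM in controls, 10.2 FPKM with drought, 9.53 FPKM with herbivory and 50.8 FPKM with both. The second largest rise, Bostr.13129s0043, belongs to them, with 1.39 FPKM in controls, 2.35 FPKM with drought, 4.07 FPKM with herbivory and 54.3 FPKM with both. The gene ranked 10 had 0.453, 0.131, 1.75 and 15.7 FPKM in that order, so all 3 other groups were below 2 FPKM. The gene ranked 3 differed, since drought alone already had 23.6 FPKM, where controls had 6.22 FPKM, plants with larvae 3.91 FPKM and plants with both challenges 51.1 FPKM.

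Over all risen genes, 37 (55.2%) were called as higher against drought alone, where 33.2% of listed identifiers were, and 31 (46.3%) as higher against control, where 18.8% were. As lower, 3 (4.48%) were called against drought alone and 3 (4.48%) against control, where 22.2% and 7.65% of listed identifiers were. Of the 5 that fell, 3 were lower against drought alone and 4 against control. These counts rest on the shared double challenge plants and are given for completeness.

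**Figure D5:**
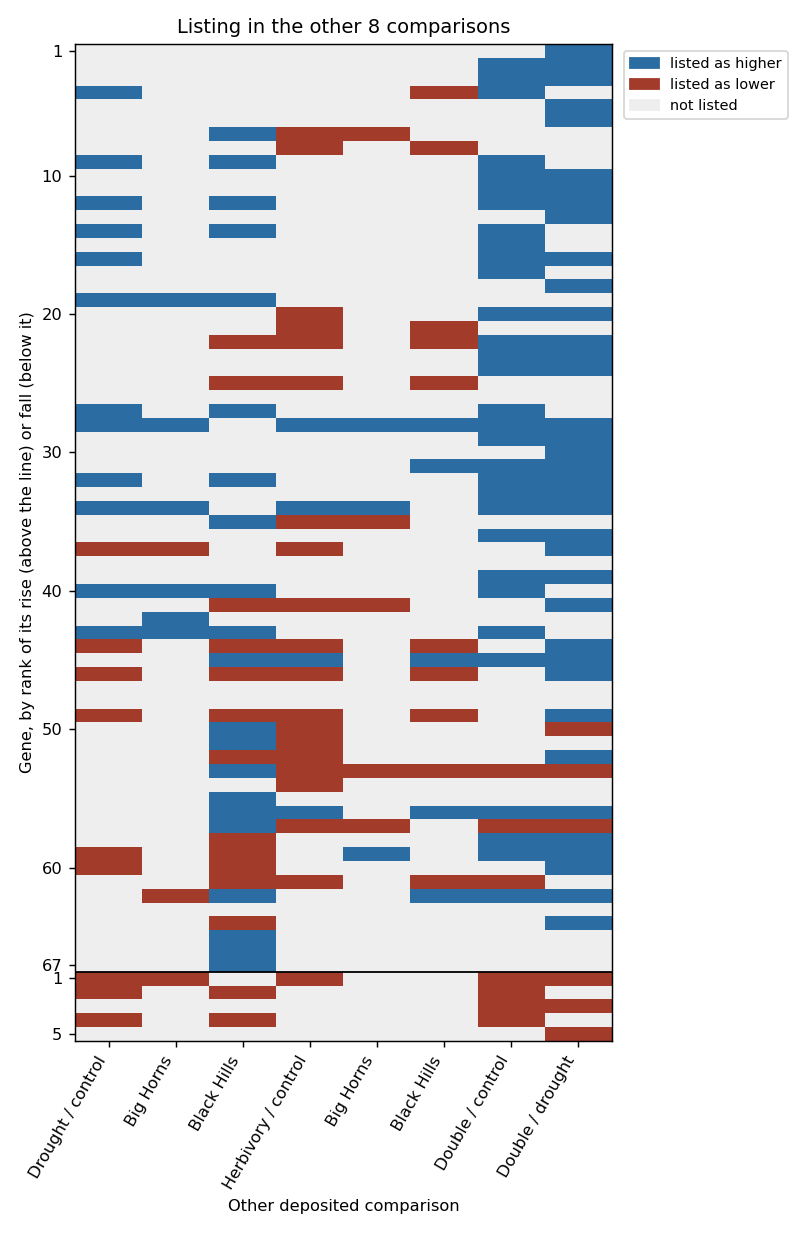
Direction in which each member (rows, ordered by its rise above the line and by its fall below it) is listed in each of the other 8 deposited comparisons (columns), with blue for higher, red for lower and grey for not listed. The column of herbivory against control holds 20 red and 4 blue cells, and that of drought against control 12 blue and 9 red cells.

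A further 7 genes (10.4%) were higher in the double challenge than in either single challenge, with no pooled comparison with control listed, and 16.4% of listed identifiers were so called against drought alone. The largest rise of all, Bostr.5763s0076, is among them, with 7.58 FPKM in drought alone. In 5 of the 7 the level with drought alone was at least 10-fold below that with both. The gene ranked 13 had 0.454 FPKM with drought and 102 FPKM with both in that comparison, and 11.5 and 95.4 FPKM in herbivory and double challenge. That ranked 18 had 0.195 and 36.6 FPKM, and 5.43 and 37.9 FPKM. The genes ranked 13 and 18 were thus under 1 FPKM with drought and without larvae, and their control levels are not listed. At the other end, the gene ranked 64 had 27.4 FPKM with drought, 29.6 FPKM with herbivory and 68.4 FPKM with both.

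Lower than in drought alone but higher than in herbivory alone were 3 genes, ranked 50, 53 and 57. The gene ranked 50 had 456 FPKM with drought, 98.6 FPKM with herbivory and 269 FPKM with both. That ranked 53 had 60.6, 7.42 and 20.0 FPKM, and that ranked 57 had 58.2, 4.49 and 11.8 FPKM in the same order. All 3 are listed as raised by drought in Black Hills, 2.21-fold, 2.34-fold and 5.01-fold, and as lowered by herbivory against control, and the double challenge lay between the single challenges.

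Called in no other table were 5 genes, ranked 26, 38, 47, 48 and 63. All 5 rose, as did 93.1% of all members. How often a listed identifier is called in no other table was not counted, so this count has no background to compare with. The gene ranked 26 went from 5.11 to 25.7 FPKM, that ranked 47 from 230 to 648 FPKM, that ranked 48 from 32.2 to 90.9 FPKM, and that ranked 63 from 14.4 to 34.3 FPKM. For these, this comparison holds the only listed change.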

How the data were processed

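RNA-seq was run on whole shoots of 13 plants in 4 treatments and 2 populations, grouped by the treatment in the sample labels. By the methods, reads were aligned to the species' reference with TopHat2, Cufflinks2 built transcripts that Cuffmerge2 joined to the annotation, and Cuffdiff2 tested the groups. The submitters' processing notes also name FastQC 0.10.1. No source used here names the build of that reference. Called genes are in 9 deposited tables. In them the FPKM column is the sum over both groups, the fold change is the linear ratio of the group FPKM, and the q-value is the false discovery rate from Cuffdiff2, all as deposited by the authors. These columns of the authors' own comparison are the only measurements in the tables, and the rule for this comparison uses them. Depth per library is unknown.

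The deposited sum was divided between the groups so that their quotient equals the fold change, with Python 3.11.15, pandas 2.3.3, numpy 2.4.6 and matplotlib 3.10.9, and the derivation was tested on simulated tables. The second plant or population of a gene was derived as 2 times the pooled level less the listed one. Genes were matched between tables by identifier. Ranks follow the fold change, ties in file order, and by the rule for named genes identifiers are printed for the 2 largest changes in each direction with at least 1 FPKM in both groups. The members and lists were chosen with earlier results of these data known. The 5 gene lists, with 91 symbols, matched 0 members, because no member has an entry in the name column. No sequence was printed, because none was in the files used here. Alternatives were stricter fold and q thresholds, an FPKM minimum, pseudocounts and the scale between tables.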

Additional observations from a re-analysis of the deposited data

How the results depend on the processing

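The files hold 1 value per group, so leaving out single plants and tests across plants were not possible. No paired analysis was possible because the tables carry no values of single plants for both groups. With log2 changes of 2 or more in either direction, 35 genes were higher and 2 lower, and the median rise was 6.99-fold. With 3 or more, 15 were higher and 1 lower. At a q of at most 0.01 by Cuffdiff2, 0 were higher and 0 lower, since the smallest listed q is 0.0141; unadjusted p-values were not used here. Of the genes raised by drought without larvae as well, 7 were left with the log2 threshold of 2 in both tables and 6 with a q of at most 0.01 in the drought table. Of the 6 with opposite directions, 0 passed the log2 threshold in both tables, and of the 3 that fell in both, 1 was left at either threshold. The alternatives were 28 for 7 main results, of which 16 left the value within 1.5 times (counts) or 10% (ratios). These 16 included the pseudocounts of 0.1 and 1 FPKM, which could have moved the median rise. They also included the FPKM minimum of 1, genes above 0 in both groups and distinct names. Those settings could change nothing, since the lowest level of any member was 1.75 FPKM and no member has a name. Dividing the scale ratio by its own median gives 1 by construction. Such settings are therefore no sign of stability. Of 88 for other results, 22 moved the count. Without dividing by the factor between tables, a choice made after seeing the data, the double challenge stood at a median of 0.820 times control for the 19 genes lowered by herbivory, against 0.892.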

Other observations

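Consecutive identifiers of the genome annotation occur in 3 pairs among the 69 annotated members. How often they occur among all listed identifiers was not counted. The genes of each pair rose, as did 93.1% of all members. The pair ranked 6 and 13 had 5.52 and 11.5 FPKM with herbivory, 61.0 and 95.4 FPKM with both challenges, and 0.590 and 0.454 FPKM with drought alone. The pair ranked 34 and 16 had 12.4 and 5.62 FPKM with herbivory and 50.6 and 44.9 FPKM with both, and drought alone raised both genes, to 10.04 and 10.4 FPKM from 1.05 and 1.12 FPKM in controls. The pair ranked 24 and 20 had 12.3 and 51.6 FPKM with herbivory and 63.5 and 343 FPKM with both, and of the 2, the latter is listed as lowered by larvae alone, from 148 to 56.2 FPKM. Consecutive genes can be near-identical copies that share reads, and their sequences were not used here. The annotated members carry 42 different numbers before the gene number, and the most frequent is shared by 7 genes, all of which rose. These are 10.1% of the annotated members, while 3.58% of the annotated identifiers listed in any table carry that number.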
